A study of Homo sapiens with 8 samples.

Results

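Trimethylation of lysine 4 (H3K4me3) and of lysine 9 (H3K9me3) of histone H3 was examined at 8 cancer driver and cell cycle genes, MYC, HRAS, PIK3CA, CDKN2A, CDKN2B, RB1, EGFR and CCND1. The genes were chosen for their roles as drivers and tumor suppressors in triple-negative breast cancer, and they are 8 of the 19962 protein-coding genes whose starts were measured. For each gene the share of the start site (TSS) ± 1 kb covered by H3K4me3 peaks, the width of the H3K4me3 region there and the share of the TSS ± 10 kb covered by H3K9me3 peaks were taken in each library, with all deposited peaks. Of the 8 genes, 5 had their start fully covered by H3K4me3 in all 4 libraries, 3 were covered in part or not at all, and no gene was without any peak of either mark. Full coverage was common, since only 43.4% to 53.5% of all promoters lay below it, depending on the library.

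H3K4me3 is laid down at active and poised promoters, most of them rich in CpG, and broad H3K4me3 regions are known from highly transcribed and cell identity genes. H3K9me3 marks compact, silent chromatin and is the mark that a KRAB repressor brings to its target. The genes act in 1 circuit of growth control. EGFR is a receptor tyrosine kinase, HRAS a small GTPase below it and PIK3CA the catalytic subunit of a phosphoinositide kinase, and their signals raise the transcription factor MYC and cyclin D1 (CCND1). Cyclin D1 with its kinases phosphorylates RB1, the retinoblastoma protein that restrains entry into S phase. CDKN2A encodes p16, an inhibitor of those kinases, and from an upstream start ARF, which stabilizes p53, and its neighbor CDKN2B encodes the related inhibitor p15.

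Native ChIP-seq was performed in SUM159, an established mesenchymal line of triple-negative breast cancer, transduced with a lentiviral vector for dCas9-KRAB (a nuclease-dead Cas9 fused to the KRAB repressor domain) and selected with puromycin. All 8 libraries carried dCas9-KRAB. The All gRNA libraries also carried 4 guides against the ZEB1 promoter and the No gRNA libraries an empty guide vector, with 2 biological replicates for each mark and group. No guide targets any of the 8 genes, so these loci were measured as bystanders of ZEB1 silencing. Libraries are called by their labels below, because the names of 2 of the 4 deposited H3K4me3 lists, those labelled All gRNA replicate 2 and No gRNA replicate 1, carry the other condition. Of the ZEB1 canonical start ± 10 kb, H3K9me3 covered 75.8% and 80.9% with the guides and 4.57% and 1.33% without them, the order that the labels of that mark give. H3K4me3 at this start ± 1 kb was 32.3% and 100% in All gRNA replicates 1 and 2, and 0% and 100% in No gRNA replicates 1 and 2, so the target gene was covered in the All gRNA replicate 2 library and bare in the No gRNA replicate 1 library, those with conflicting names. The labelled groups thus overlapped at ZEB1. Grouped by the names, the values would be 32.3% and 0% with the guides, against 100% and 100% without them. The H3K4me3 group means, tests and calls below use the labels, and no grouping by names was among the alternatives. H3K4me3 covered VIM and FN1, mesenchymal genes, fully in every library, and the leukocyte gene PTPRC in none. Marks at other markers did not follow cell type as closely, with 34.6%, 56.8%, 0% and 35.9% at the neuronal gene NEUROD1, 52.5% in No gRNA replicate 1 and 0% in the others at the liver gene ALB, at least 79.0% at the luminal gene GATA3 and 93.6%, 24.2%, 84.1% and 91.6% at the epithelial gene CDH1. The lists held 390316 to 499458 H3K4me3 peaks and 284054 to 370024 H3K9me3 peaks, many of them weak, and no read counts. The H3K4me3 peaks covered 623 to 933 Mb.

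The H3K4me3 share of the TSS ± 1 kb was 100% in all 4 libraries at MYC, PIK3CA, RB1, EGFR and CCND1. The share of all promoters below 100% was 51.5% and 47.5% in All gRNA replicates 1 and 2, and 53.5% and 43.4% in No gRNA replicates 1 and 2. The TSS is here the 5′ end of the gene in the annotation, and the canonical start that of its principal transcript. HRAS had 13.4%, 10.8%, 24.5% and 0% at its 5′ end and 80.1%, 49.3%, 0% and 83.0% at its canonical start, which lies 1745 bases downstream (values in the order All gRNA replicates 1 and 2, No gRNA replicates 1 and 2, here and below). CDKN2A had 0% in every library at its 5′ end, the ARF start, and 38.1%, 0%, 0% and 16.6% at its canonical start, the p16 start 20444 bases downstream. CDKN2B had 0%, 0%, 0% and 44.8%. At the canonical start 0 of the 8 genes lacked an H3K4me3 region in every library, against 3.30% of all promoters, and 2, CDKN2A and CDKN2B, lacked one in at least 2 libraries, against 14.7%.

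The promoter sequences of the genes at the extremes of this range are given because each of them is rich in CpG, whether its H3K4me3 was full or absent. Of the 8 genes, 6 had an entry in the RefSeq promoter table (GRCh38.p14), without one were MYC and CCND1, and those of RB1 and PIK3CA did not give an untranscribed run at the start measured here. Each run below holds the bases before the start, 5′ to 3′ on the strand of the gene, and capitals mark GC boxes, GGGCGG or CCGCCC on the strand shown, the letters that Sp1-type factors bind.
EGFR (chr7:55018767-55019016, plus strand): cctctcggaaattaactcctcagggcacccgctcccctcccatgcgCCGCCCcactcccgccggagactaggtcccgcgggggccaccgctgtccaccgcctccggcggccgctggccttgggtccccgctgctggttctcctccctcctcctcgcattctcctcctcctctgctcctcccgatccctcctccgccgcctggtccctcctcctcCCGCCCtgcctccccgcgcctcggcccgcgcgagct
HRAS, canonical start (chr11:535577-535826, minus strand): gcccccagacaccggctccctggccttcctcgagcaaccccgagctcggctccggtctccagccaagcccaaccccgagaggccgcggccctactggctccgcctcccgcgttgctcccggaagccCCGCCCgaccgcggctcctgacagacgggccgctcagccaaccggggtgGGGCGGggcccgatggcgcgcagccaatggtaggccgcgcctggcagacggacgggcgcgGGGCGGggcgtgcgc
CDKN2A, p16 start (chr9:21974867-21975107, minus strand): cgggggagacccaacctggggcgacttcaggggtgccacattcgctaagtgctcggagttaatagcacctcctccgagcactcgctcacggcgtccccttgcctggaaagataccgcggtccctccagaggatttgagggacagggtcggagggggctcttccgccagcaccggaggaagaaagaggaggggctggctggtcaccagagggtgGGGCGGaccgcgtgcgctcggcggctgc
CDKN2A, ARF start (chr9:21995325-21995574, minus strand): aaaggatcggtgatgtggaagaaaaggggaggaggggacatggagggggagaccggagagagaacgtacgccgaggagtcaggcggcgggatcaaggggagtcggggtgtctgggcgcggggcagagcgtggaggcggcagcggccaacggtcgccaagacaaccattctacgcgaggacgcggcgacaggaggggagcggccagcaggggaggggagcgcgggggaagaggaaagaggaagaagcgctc
CDKN2B (chr9:22009306-22009555, minus strand): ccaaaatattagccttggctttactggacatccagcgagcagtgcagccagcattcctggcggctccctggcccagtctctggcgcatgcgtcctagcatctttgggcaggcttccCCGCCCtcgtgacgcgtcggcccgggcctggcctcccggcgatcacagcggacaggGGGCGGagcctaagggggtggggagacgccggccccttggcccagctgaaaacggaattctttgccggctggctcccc

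The EGFR run held 25 CpG dinucleotides and 2 GC boxes and was covered by H3K4me3 in full in all 4 libraries. The HRAS run held 32 CpG and 3 GC boxes, with coverage of 100%, 34.8%, 0% and 100%. The p16 run held 19 CpG and 1 GC box, with coverage of 5.39%, 0%, 0% and 22.8%, and the ARF run 24 CpG and no GC box, with 0% in every library. The CDKN2B run held 18 CpG and 2 GC boxes, with 0% in 3 libraries and 100% in No gRNA replicate 2, under a peak with a q-value of 0.895. All 5 runs, of which that at p16 is 241 bases long, lay above the median of 11 CpG over the 250 bases before the start in 34961 promoter entries, and a GC box stood in 42.7% of those entries. A match of letters describes the sequence and does not show that a factor is bound.

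CDKN2A (chr9:21967752-21995301) and CDKN2B (chr9:22002903-22009305), both on the minus strand, were the genes with the least H3K4me3. The H3K4me3 regions at the p16 start were 1117 bases in All gRNA replicate 1 and 332 bases in No gRNA replicate 2, with q-values of 0.267 and 0.530. The 1 region at CDKN2B was 896 bases. Within 250 kb of the CDKN2A TSS, H3K4me3 covered 2.18%, 3.19%, 1.91% and 2.91%, and the share of all promoters with a lower value was 1.19%, 0.857%, 0.561% and 0.661%. Low coverage was thus found in all 4 libraries and far beyond the promoter.

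H3K9me3 at both genes came in weak peaks. In the TSS ± 10 kb of CDKN2A it was 0%, 14.6%, 0% and 0%, and around the p16 start 14.6%, 10.9%, 11.4% and 14.8%, above the median over promoters in each library (3.59%, 4.78%, 6.63% and 7.62%). At CDKN2B it was 3.06%, 5.27%, 3.63% and 3.65%, with both groups overlapping. The H3K9me3 peaks within 10 kb of the canonical starts, 5 at CDKN2A and 6 at CDKN2B, had q-values from 0.219 to 0.734. With all deposited peaks neither gene was therefore free of peaks, the condition under which a gene is noted as possibly lost, and 0 of the 8 genes met it, against 0.331% of all promoters. With peaks of q ≤ 0.05, CDKN2A, CDKN2B and HRAS held no peak of either mark within 10 kb in any of the 8 libraries, 3 of the 8 genes against 31.0% of all promoters.

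At that threshold CDKN2A and CDKN2B lay in 1 stretch of 1862731 bases, chr9:20768371-22631101, without a peak of either mark in any library, and 99.5% of promoters lay in a shorter stretch or under a peak. The stretch contains no unresolved bases in hg38. Leaving out the H3K9me3 library labelled All gRNA replicate 1 extended it to 2403002 bases, and leaving out any other library did not change it. It held the starts of 22 protein-coding genes, among them HACD4, the type I interferon genes from IFNB1 to IFNE, KLHL9, MTAP (a methionine salvage enzyme) and DMRTA1. The nearest protein-coding starts outside it were those of FOCAD and ELAVL2. KLHL9 was the 1 gene of the 22 with H3K4me3 at its TSS in every library when all peaks were kept, 31.6%, 49.0%, 23.5% and 56.8%, while MTAP, widely transcribed in other cells, had 0%, 14.1%, 0% and 0%. All peaks together covered 1.37% to 1.83% of the stretch with H3K4me3 and 2.24% to 4.31% with H3K9me3, and the lowest q-value in it was 0.0623. Only stretches that hold a protein-coding start were measured. Among these, longer ones at q ≤ 0.05 were found in 3 places, on chromosome 6 with 69 starts (TRIM27 first), on chromosome 9 around DMAC1 and on chromosome X with 16 starts.

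**Figure D1:**
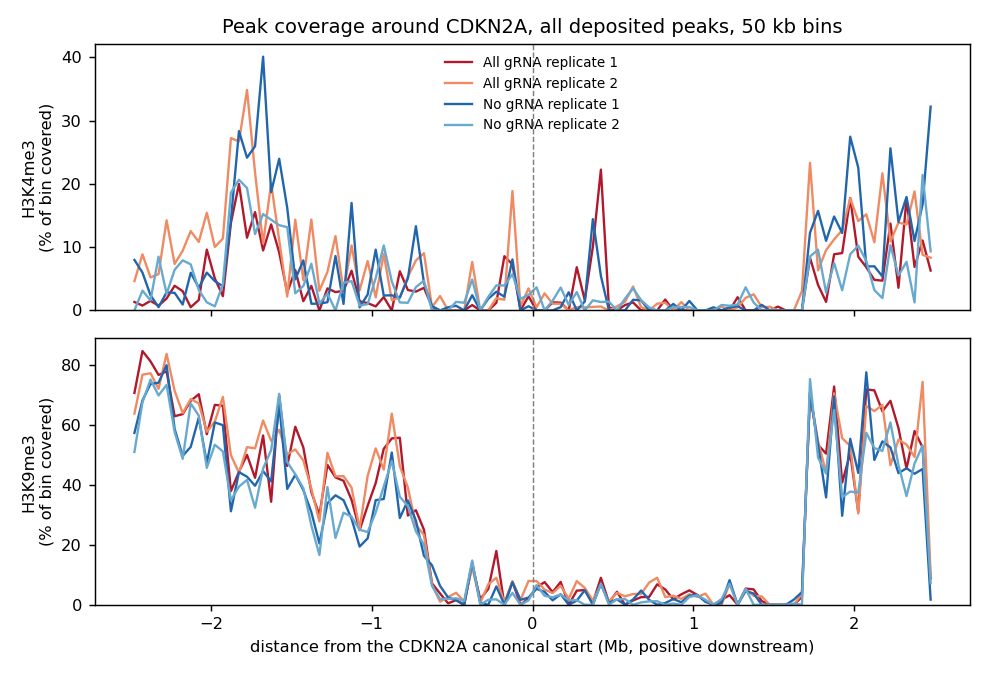
Share of consecutive 50 kb bins covered by H3K4me3 (upper) and H3K9me3 peaks (lower), in percent, against the distance from the CDKN2A canonical start in Mb, 1 line per library, all deposited peaks. H3K9me3 is low from 650 kb upstream to 1700 kb downstream of the start in all 4 libraries and rises on both sides, and H3K4me3 is low there apart from single bins. These limits were set on H3K9me3.

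H3K4me3 was lower around CDKN2A than on either side, in an interval whose edges were set on low H3K9me3. The run of 50 kb bins around CDKN2A in which H3K9me3 averaged under 20% over its 4 libraries reached from 650 kb upstream to 1700 kb downstream, with limits set after seeing the data. Inside it, H3K9me3 covered 3.49%, 3.84%, 2.74% and 1.97%, against 57.8%, 57.7%, 53.9% and 50.6% in the 500 kb on the side of the lower coordinates and 38.4%, 40.4%, 29.98% and 31.1% in the 500 kb on the other side. H3K4me3, which did not set the edges, covered 1.51%, 1.37%, 1.13% and 1.29% inside and 7.43%, 14.3%, 13.5% and 6.37% and then 2.76%, 5.82%, 5.91% and 3.72% beside it. Loss of the DNA and absence of both marks cannot be told apart from peak lists, and DNA copy number was not measured here.

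RB1 (chr13:48303744-48599436, plus strand), the substrate of the kinases that p16 and p15 inhibit, had an H3K4me3 region at its start of 5754, 7001, 5657 and 4423 bases. The library medians over promoters with a region were 5363, 5812, 5769 and 6649 bases, so the RB1 region was 0.67 to 1.20 times as wide. The groups did not overlap, with 6378 ± 882 bases in All gRNA and 5040 ± 873 bases in No gRNA (mean ± SD, n = 2 each, exact permutation test, two-sided, p = 0.33, the smallest that 2 against 2 libraries allow). Grouped by the conflicting list names, the widths would be 5754 and 5657 bases with the guides, against 7001 and 4423 bases without them, which overlap. How often widths separate the groups over all promoters was not counted, so RB1 cannot be set against that share. The gap of 97 bases between the groups was smaller than the spread within either, and the difference turned from 1337.5 to -487 bases when peaks up to 1 kb apart were joined (exact p = 0.67) and was 12537 bases when peaks up to 5 kb apart were joined (exact p = 0.33). H3K9me3 in the TSS ± 10 kb of RB1 was 0%, 4.97%, 0% and 9.09%.

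CCND1 (chr11:69641156-69654474, plus strand) had a broader region, 20026, 13347, 17830 and 20329 bases, 2.30 to 3.73 times the library medians, that took in the whole gene in 3 libraries. The groups overlapped (16687 ± 4723 bases against 19080 ± 1767 bases, n = 2 each, exact p = 0.67). Joining peaks up to 3 kb apart moved the difference from -2393 to -64796.5 bases (exact p = 0.33), and joining up to 5 kb to -43345.5 bases (exact p = 1). With peaks of q ≤ 0.05 the start of CCND1 was covered in both libraries labelled No gRNA, in regions of 17830 and 20329 bases, and in neither labelled All gRNA (exact p = 0.33). At this threshold 323 of the 19962 promoters were lower in All gRNA by at least 25 points. The CCND1 peaks had q-values of 0.0532 and 0.114 under the All gRNA label, against 0.0297 and 0.00231 under the No gRNA label. The peak of All gRNA replicate 1 thus missed the threshold by a small margin. Without the 2 libraries whose names conflict, the start was covered at this threshold in No gRNA replicate 2 and not in All gRNA replicate 1, with 1 library in each group. That order follows from the separation by label, so it does not check the labels. The names would place 1 of the covered starts in each condition. H3K9me3 around CCND1 was 0% in 3 libraries and 3.75% in No gRNA replicate 2.

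EGFR (chr7:55019017-55211628, plus strand) had the clearest separation between the labelled groups. The H3K4me3 region at its start was 10130 and 10470 bases wide under the All gRNA label, against 89263 and 66944 bases under the No gRNA label, where it reached 84620 and 64637 bases past the start. The narrower No gRNA region was 6.39 times the wider All gRNA region (10300 ± 240.4 bases against 78104 ± 15782 bases, n = 2 each, exact permutation test, two-sided, p = 0.33). At least a 2-fold wider region in both No gRNA libraries was found at 1 of the 8 genes, EGFR, against 2.70% of 19303 promoters with a region, and at least a 2-fold wider region in both All gRNA libraries at 0, against 1.45%.

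The same gene was covered to a similar extent in all 4 libraries when its whole length was counted. Of the 192612 bases of EGFR, H3K4me3 peaks covered 73.8% and 85.1% under the All gRNA label, against 91.7% and 84.1% under the No gRNA label (exact p = 0.67). They formed 28, 18, 11 and 21 separate regions. In All gRNA replicate 2 the start region ended 1079 bases before the next one, and in All gRNA replicate 1 2389 bases before it. Joining peaks up to 3 kb apart lowered the difference in width from -67804 to -13248 bases (exact p = 0.67), joining up to 5 kb turned it to 36994 bases (exact p = 1), and at q ≤ 0.01 the start was covered in All gRNA replicate 1 alone. Joining up to 1 kb, equal covered length and q ≤ 0.05 each left the width difference at -67804 bases (exact p = 0.33). The width difference thus changed at q ≤ 0.01 and when breaks of up to 3 or 5 kb were joined, settings of which the joins were added after seeing the data. Without the 2 libraries whose names conflict, the widths were 10130 bases in All gRNA replicate 1 and 66944 bases in No gRNA replicate 2, and the names would place 1 of the wide regions in each condition. H3K9me3 in the TSS ± 10 kb of EGFR was 13.9%, 14.2%, 14.6% and 4.12%.

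PIK3CA (chr3:179148114-179240093, plus strand) had a start region of 6486, 7403, 4916 and 7420 bases, near the library medians, with overlapping groups (exact p = 1). Its peak passed q ≤ 0.05 in 1 library, No gRNA replicate 2, at a fold enrichment of 3.79. H3K9me3 around it was absent with the guides and 5.10% and 3.47% without them, in peaks with q-values of 0.527 or more.

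HRAS (chr11:532242-537321, minus strand) had the smallest region of the genes upstream of MYC and CCND1, 2115, 1858, 0 and 4093 bases at its canonical start, all below the library medians, with q-values from 0.0550 to 0.854. The library without a region was that labelled No gRNA replicate 1, where 24.5% of the window around the 5′ end was covered instead. H3K9me3 was found in All gRNA replicate 2 alone, at 4.00%.

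**Figure D2:**
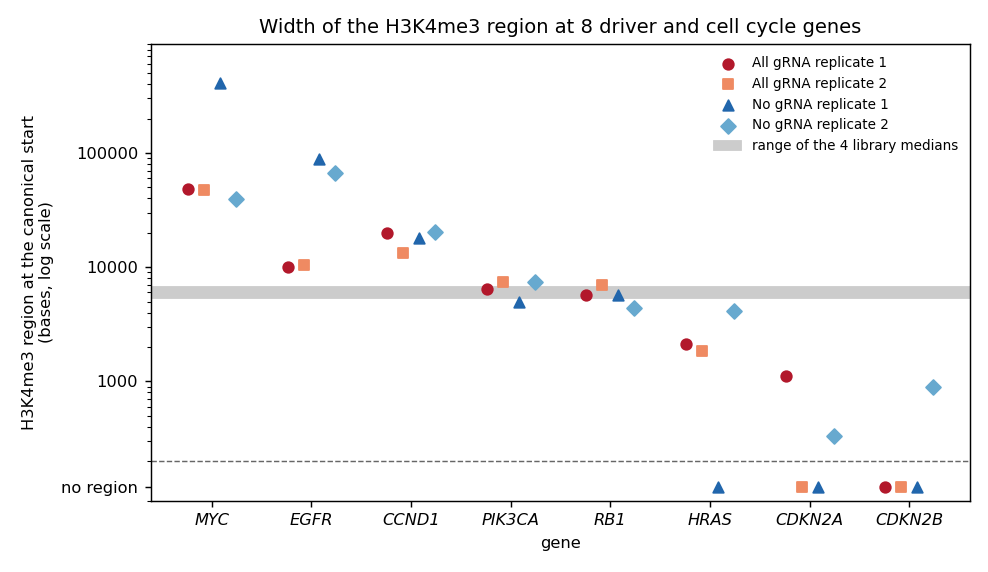
Width of the H3K4me3 region at the canonical start of each gene, in bases on a log scale, 1 point per library, with points below the dashed line standing for no region. The gray band is the range of the 4 library medians, 5363 to 6649 bases. EGFR separates the labelled groups, MYC is widest in No gRNA replicate 1, and CDKN2A and CDKN2B have no region in several libraries.

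MYC (chr8:127735434-127742951, plus strand) had the H3K4me3 peaks with the lowest q-values of the 8 genes in every library, and the widest region in 3 libraries, EGFR being wider in No gRNA replicate 2. The region at its start was 48542, 47237, 409803 and 39378 bases, and the peaks had q-values of 2.46e-15, 9.19e-13, 1.74e-22 and 3.09e-31. By fold enrichment, 2.20, 2.26, 2.68 and 3.18, they were not the strongest, since the EGFR peak had 3.36, 2.96 and 2.91 in the first 3 libraries and the RB1 peak 4.00 in the other. The library labelled No gRNA replicate 1 stood apart, with the widest region at any promoter in its list, 71.0 times its median. The groups overlapped (47890 ± 923 bases against 224590 ± 261930 bases, n = 2 each, exact p = 1), and without that library the mean of All gRNA was 8512 bases above the other No gRNA region. The wide region took in 85.2% of PVT1, a long noncoding RNA gene that starts 58295 bases downstream of MYC.

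In each of the 4 libraries the longest H3K4me3 region of the whole genome lay at MYC or PVT1, with 338975, 192961, 409803 and 299537 bases. It lay over PVT1 in 3 libraries and reached the MYC start in No gRNA replicate 1. H3K4me3 covered 86.6%, 74.8%, 98.3% and 70.3% of the 250 kb on each side of the MYC TSS. In the run of 20 kb bins in which H3K4me3 averaged at least 30% over the 4 libraries, from 820 kb upstream to 480 kb downstream of the MYC start, it covered 86.0%, 75.3%, 95.3% and 68.1%, against 3.97% to 19.1% in the 200 kb before and 4.20% to 35.3% in the 200 kb after.

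H3K9me3, which did not set these edges, covered 34.7% to 37.2% with the guides and up to 46.0% without them of the same 1300000 bases, against 2.27% to 3.49% before and 1.44% to 3.53% after. H3K9me3 was therefore higher inside the interval than on either side in each of its 4 libraries. H3K4me3 set the edges, so its higher coverage inside follows from that choice. POU5F1B was the 1 other protein-coding gene that starts in the interval.

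**Figure D3:**
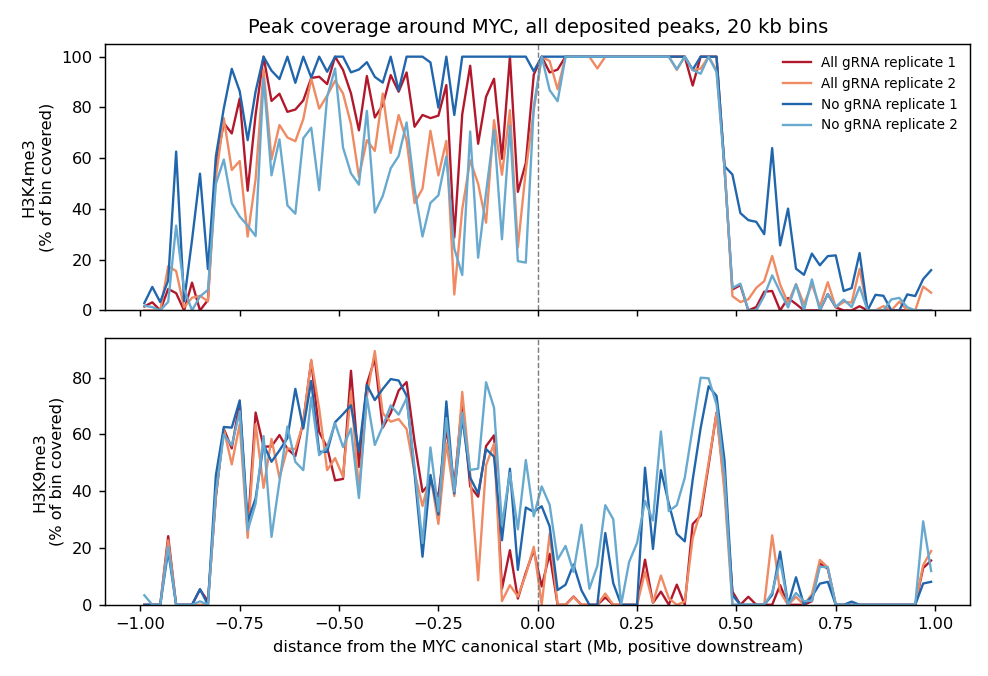
Share of consecutive 20 kb bins covered by H3K4me3 (upper) and H3K9me3 peaks (lower), in percent, against the distance from the MYC canonical start in Mb, 1 line per library, all deposited peaks. Coverage by both marks is higher between 820 kb upstream and 480 kb downstream of the start than beyond, and near the start H3K9me3 is higher in both No gRNA libraries. These limits were set on H3K4me3.

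Close to the MYC start H3K4me3 was complete, while H3K9me3 was below the median over promoters in All gRNA and above it in No gRNA. H3K9me3 in the TSS ± 10 kb was 2.61% and 3.02% with the guides, against 8.46% and 19.5% without them (2.81 ± 0.290% against 14.0 ± 7.79%, n = 2 each, exact permutation test, two-sided, p = 0.33). The groups did not overlap, and H3K9me3 was higher in No gRNA without overlap at 24.4% of all promoters. The gap between the nearest libraries, All gRNA minus No gRNA, was -5.44 points, short of the 25 points used to call a promoter. Over the gene itself H3K9me3 was 0% and 0% against 10.6% and 23.8%. The strongest of these peaks had a q-value of 0.0140 in No gRNA replicate 2, and with q ≤ 0.05 H3K9me3 was left in that library alone, at 7.67%. The median H3K9me3 share over all promoters was also higher in No gRNA, 6.63% and 7.62% against 3.59% and 4.78%.

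The peaks around MYC differed from those of the other genes in fold enrichment, the ratio of the reads in a peak to those expected there. For the same p-value MACS2 asks for a smaller ratio where more reads are expected. The median fold of the H3K9me3 peaks starting within 250 kb of the MYC TSS was 1.20, 1.20, 1.19 and 1.17, the lowest of 17858 to 19263 promoters with at least 10 such peaks in each of the 4 libraries, whose medians were 1.54 to 1.61. For H3K4me3 it was 1.33, 1.36 and 1.34 in All gRNA replicates 1 and 2 and No gRNA replicate 2, again the lowest of 19773 to 19900 promoters, with medians of 1.78 to 1.88. In No gRNA replicate 1 the window held 6 H3K4me3 peaks, too few to rank, with a median fold of 1.70. The median q-values at MYC were nevertheless lower than those over promoters, 0.0720 to 0.257 against 0.383 to 0.545 for H3K9me3.

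The other 7 genes lay between 1.50 and 1.65 for H3K9me3. At CDKN2A the H3K4me3 peaks had a median fold of 1.95, 1.65, 1.60 and 1.71, with 92.9%, 0.427%, 1.09% and 2.06% of promoters lower, from 13 to 22 peaks. Read depth and DNA copy number are not in the peak lists, and their part in these values was not tested.

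**Figure D4:**
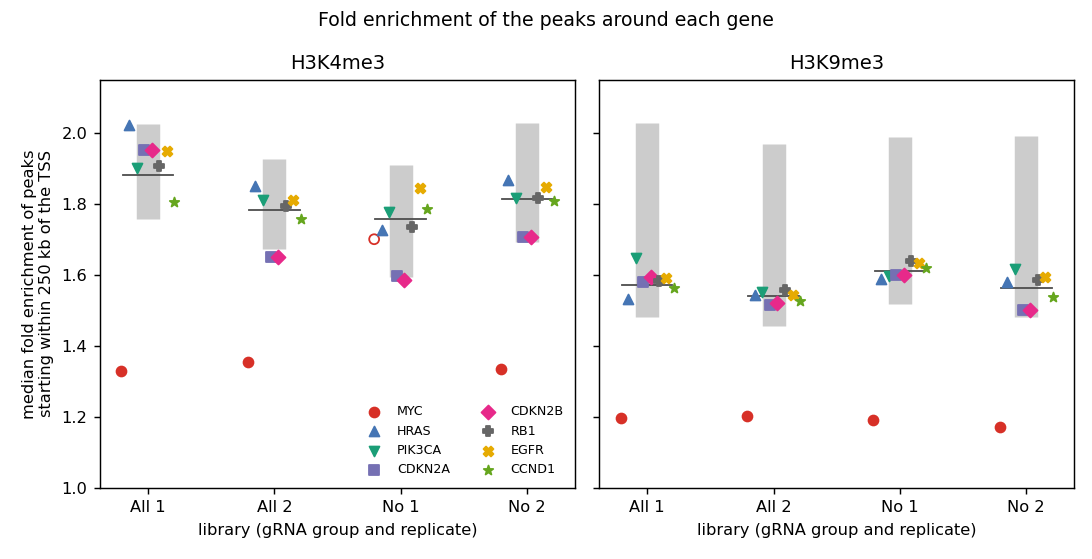
Median fold enrichment of the peaks starting within 250 kb of each TSS, by library, for H3K4me3 (left) and H3K9me3 (right). Gray bars span percentiles 1 to 99 of all promoters with at least 10 peaks, the black line is their median, and the open symbol marks a window with 6 peaks. MYC lies far below the bar in 7 of the 8 libraries.

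For H3K9me3 over all 8 genes, 0 were called in either direction, that is, with the lowest library of 1 group at least 25 points above the highest of the other, against 0.180% of all promoters higher in All gRNA and 0.0351% higher in No gRNA. For H3K4me3 0 were called as well, against 1.78% higher in All gRNA and 2.21% higher in No gRNA. Without overlap between the groups, H3K9me3 was higher in No gRNA at 2 genes, MYC and PIK3CA, against 24.4% of all promoters, and higher in All gRNA at 0, against 11.0%. The median difference in H3K9me3 share over the 8 genes, All gRNA minus No gRNA, was -0.67 points, and over all promoters -0.92 points. The median of the library was exceeded by EGFR in 3 libraries, by MYC and RB1 in 2 each, by CDKN2A and CDKN2B in 1 each and by the other genes in none.

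**Figure D5:**
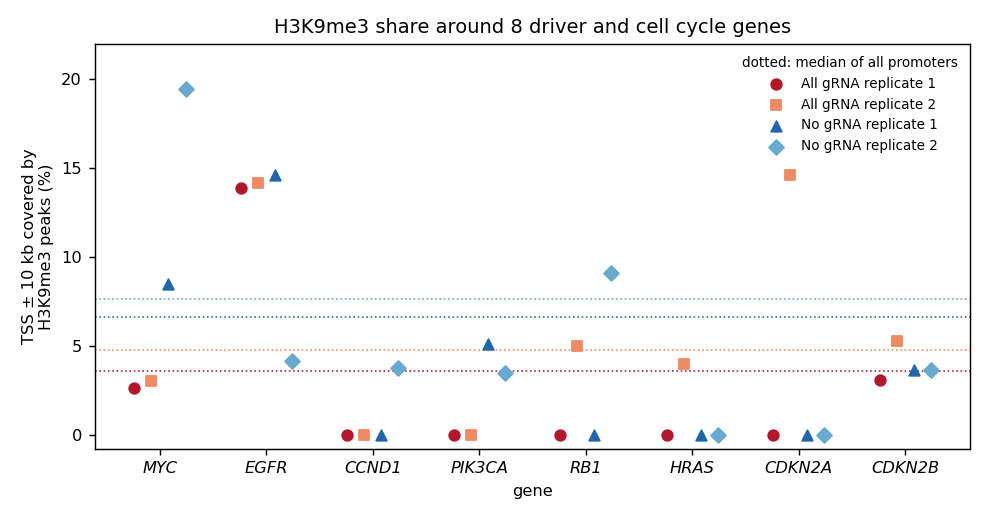
Share of the TSS ± 10 kb covered by H3K9me3 peaks at each gene, in percent, 1 point per library. Dotted lines give the median over all promoters in the library of the same color, 3.59% to 7.62%. MYC is higher in both No gRNA libraries, and CCND1, PIK3CA, RB1, HRAS and CDKN2A are at 0% in at least 2 libraries.

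Other genes of the same circuit were measured as 6 lists with 72 genes, G1/S regulators, G2/M and replication genes, receptors and RAS-MAPK, PI3K-AKT-mTOR, the MYC network, and p53 and checkpoint genes. Of the 72, 0 were called for either mark in either direction. An H3K4me3 region at the canonical start in all 4 libraries was found at 71 of them and at 5 of the 8 genes, against 73.5% of all promoters. A region at least 2-fold wider in both No gRNA libraries was found at 4 of the 72, beside EGFR, against 2.70% of all promoters with a region. Among these were MET, a receptor tyrosine kinase (3721, 5188, 47801 and 27607 bases), MCM2, a subunit of the replicative helicase (4541, 10025, 23144 and 33612 bases), and MYCN, a MYC paralog (1528, 1725, 4666 and 3667 bases). The opposite was seen at 1 of the 72, against 1.45%, RPTOR, a subunit of the mTOR complex 1 (15639, 26961, 6269 and 6628 bases). As at EGFR, the conflicting list names would mix these groups. The median H3K9me3 difference of the lists ranged from -6.54 points in the MYC network to 0 in the p53 and checkpoint list.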

How the data were processed

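H3K4me3 and H3K9me3 were measured by native ChIP-seq in SUM159 cells, with 2 libraries for each mark in All gRNA and No gRNA. Groups and replicate numbers come from the labels. According to the study's methods, reads were trimmed with fastp, aligned to hg38 with bowtie2, cleared of duplicates and of an exclusion list, and MACS2 called peaks library by library with fragments extended to a fixed length. The submitters' processing notes name bcl2fastq 2.17, Trimmomatic 0.33, Bowtie 1.1.2 and MACS2 2.1.0 instead, and which applied is not settled by the sources used here. Input chromatin was kept, and its use as control in the peak calling is not stated. Each deposited peak carries a score. Its fold enrichment, a ratio to the reads MACS2 expected there, and the −log10 values of p and q were also written by the authors' peak caller. The lowest −log10 p was about 1, so weak peaks are included. Depth is unknown, and the number of libraries limits the precision. Repeats of a biological replicate number in both groups were not taken as pairs, since same-numbered deviations correlated at 0.015 (H3K4me3) and 0.026 (H3K9me3) across promoters.

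Peaks on 23 chromosomes (1 to 22 and X) were merged within each library, and the covered share of fixed windows and the summed length of regions overlapping the TSS ± 1 kb were computed (Python 3.11.15, numpy 2.4.6, pandas 2.3.3) for 19962 protein-coding genes of GENCODE release 44, tested on simulated intervals. No peak end lay beyond an hg38 chromosome end, and 8 RefSeq promoter sequences of the genes equaled hg38. Group differences were tested over library values by an exact two-sided permutation test over 6 labellings, whose smallest p is 0.33. A promoter was called at a gap of 25 points between the groups. Genes named in the text were the 8 genes, ZEB1, related genes where called, genes starting in the peak-free stretch of CDKN2A with its neighbors, genes of the longest stretches and the marker genes. PVT1, POU5F1B, MET, MCM2, MYCN and RPTOR were named after their values were seen, and 1 related gene is not reported here. The genes and lists were chosen with earlier results of these data known. Alternatives were the q threshold, the windows, joined gaps, the TSS, the gap, equal covered length, each library left out and the replicate number as a block. Joined gaps of 3 and 5 kb, the 250 kb windows, the median fold and the intervals around MYC and CDKN2A were added after seeing the data. The 2-fold width rule and the width at the canonical start were not in the plan either. The list names of 2 H3K4me3 libraries conflict with their labels, which were kept.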

Additional observations from a re-analysis of the deposited data

How the results depend on the processing

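Of 446 alternative values of 39 results, 331 stayed within the spread or within 1.5 times the count, 113 moved and 2 were counted as reversed. The 2 counted as reversed were the EGFR width difference, 36994 bases with gaps up to 5 kb joined and 5065 bases at q ≤ 0.01. Other differences changed sign but were counted as unchanged or moved. Among them, the MYC width difference went from -176701 to 8511.5 bases without No gRNA replicate 1. That of RB1 went from 1337.5 to -487 bases with gaps up to 1 kb joined. The H3K4me3 calls among the 8 genes that were lower in All gRNA numbered 1 at q ≤ 0.05 (CCND1), and 0 to 1 with each library left out, the 1 being CDKN2B without No gRNA replicate 1. Their median width difference of -224 bases was -1105.75 at q ≤ 0.01 and -2936.5 at q ≤ 0.05. Genes without any peak numbered 3 at q ≤ 0.01 and 3 at q ≤ 0.05, and their median peak-free stretch of 0 bases was 14221.5 in the H3K9me3 libraries alone. Over all promoters, the 356 H3K4me3 calls higher in All gRNA became 226 within 2 kb, 781 and 84 with gaps of 10 and 50 points, 3 at q ≤ 0.01, 27 at q ≤ 0.05 and 706 to 2471 with a library left out. The 442 lower became 285 at equal covered length, 951 and 121 with those gaps, 201 at q ≤ 0.01, 323 at q ≤ 0.05 and 1020 to 1444 with a library left out. The 36 H3K9me3 calls higher in All gRNA became 59 within 5 kb, 370 and 3 with those gaps and 75 to 148. The 7 lower became 1 within 25 kb, 33 within 5 kb, 344 and 0 with those gaps, 2 at q ≤ 0.01, 1 at q ≤ 0.05 and 28 to 93. With the replicate number as a replicate block they became 13, no other count moved by over 1.5 times, and the smallest p for a pair of pairs is 0.5. Promoters without any peak, 66, became 42 within 25 kb, 124 within 5 kb, 10978 at q ≤ 0.01 and 6191 at q ≤ 0.05. With 2 libraries in each group no difference could pass 0.05 in the exact permutation test. Depth is unknown, so a missing peak cannot be told apart from one not detectable, and the cause of these changes was not tested.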
